A study of Homo sapiens with 6 samples.

Results

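Loss of the chromatin reader ZMYND11 was examined in 22Rv1 cells, an established human prostate carcinoma line, by setting the second of its 2 knockdowns (kd2) against control cells. The comparison took the 2 kd2 libraries and the 2 control libraries, which make up 4 of the 6 RNA-seq libraries of the series. The other 2 belong to the first knockdown (kd1). By their labels the kd2 cells carried a ZMYND11 knockdown and the controls had genotype WT. The study's own legend speaks of control shRNAs, so it is not settled whether the controls held a vector. The study's methods describe lentiviral infection for its knockdowns, with uninfected cells then killed by puromycin and a lower dose kept on. The labels do not say whether the controls had this selection, and no time of harvest is given. Each group is 1 cell line with no statement on separate cultures, so p-values measure the spread between these libraries, which may be technical. Every gene with enough counts for the test was used, which was 16510 of 35322 gene symbols.

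ZMYND11, also called BS69, reads the histone variant H3.3 trimethylated on lysine 36, a mark of the bodies of transcribed genes. It is known to restrain elongation by RNA polymerase II and to affect splicing, in particular the retention of introns. A fall in its mRNA can therefore touch many genes, through direct binding or through what follows from it, and counts of a whole gene do not separate the routes. The study used a pair of shRNAs against the coding sequence of ZMYND11, and its text does not say which of them kd2 carried. Their target sequences, shown because they define the perturbation, are written 5′ to 3′ with capitals for the bases that pair with positions 2 to 8 of the antisense strand:
shRNA-1: cctgacaactggtTCTGTTAt
shRNA-2: cgtgtcaactcagACAAAGAa
In the hg38 genome the target of shRNA-1 is at chr10:240944-240964 on the plus strand, in coding exon 9 of the canonical GENCODE transcript. The target of shRNA-2 is at chr10:248413-248433 on the same strand, in coding exon 13. Of the 26 annotated ZMYND11 transcripts, 21 hold the first target and 22 the second.

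Levels are given as CPM, read counts scaled to a common library size (TMM). ZMYND11 itself had 141 and 135 CPM in the control libraries and 21.6 and 22.7 in kd2. Both kd2 libraries lay far below both controls, with a log2 fold change of -2.64 ± 0.07 (SE, adjusted p = 3.78e-13, edgeR). Total counts were 26844128 and 27639713 in the control libraries and 36040761 and 33760573 in kd2. The 2 kd2 libraries differed from each other more than the 2 controls did, with a chi-square per degree of freedom of 10.7 against 2.36. Markers of luminal prostate cells, the type that this carcinoma line resembles, summed to 3572 to 3598 CPM of the library total in control and 4098 to 4204 in kd2, and 10 of 10 had at least 10 counts in each of the 4 libraries. Those of leukocytes summed to at most 0.745 CPM and those of endothelium to at most 0.194, with CD3E at 0 in all 4. Basal markers summed to at most 1.87 CPM, with TP63 at 0 in both controls. Markers of fibroblasts and muscle summed to 36.5 to 45.1 CPM, of which COL1A1 gave most, and neuroendocrine markers to 115 and 122 in control and 86.3 and 73.5 in kd2, nearly all of it SYP. In bulk RNA, a change in the share of cells and a change in RNA per cell cannot be told apart.

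Across all genes tested with edgeR's quasi-likelihood test and Benjamini-Hochberg adjustment at 0.05, 6031 genes rose in kd2, which was 36.5% of those tested, and 6087 fell, which was 36.9%. At least 2-fold changes were fewer and leaned downward, with 2104 rises (12.7%) and 3163 falls (19.2%). The genes of mitosis and those of DNA replication and repair were prominent among the falls, with 144 of 155 and 87 of 94 lower, but 11878 of the 12118 calls lay outside those lists. Outside them 2102 genes rose and 2952 fell by at least 2-fold. What these other genes are is described here by gene list and by family, with each count to be read against the shares of all genes given above. The lists were chosen with earlier results of these data known, so their counts are descriptions and carry no test of the list. Scaling by library totals alone lowered the fold changes by 0.17 at the median on the log2 scale, and fold changes are to be read against the median of all genes, -0.03 under TMM scaling. Values written with ± are log2 fold changes of kd2 over control with their SE, on 2 libraries a group. For the genes named with their levels, both kd2 libraries lay on one side of both controls, except for DUSP6, PSMB8 and DDIT3, whose groups overlapped.

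**Figure D1:**
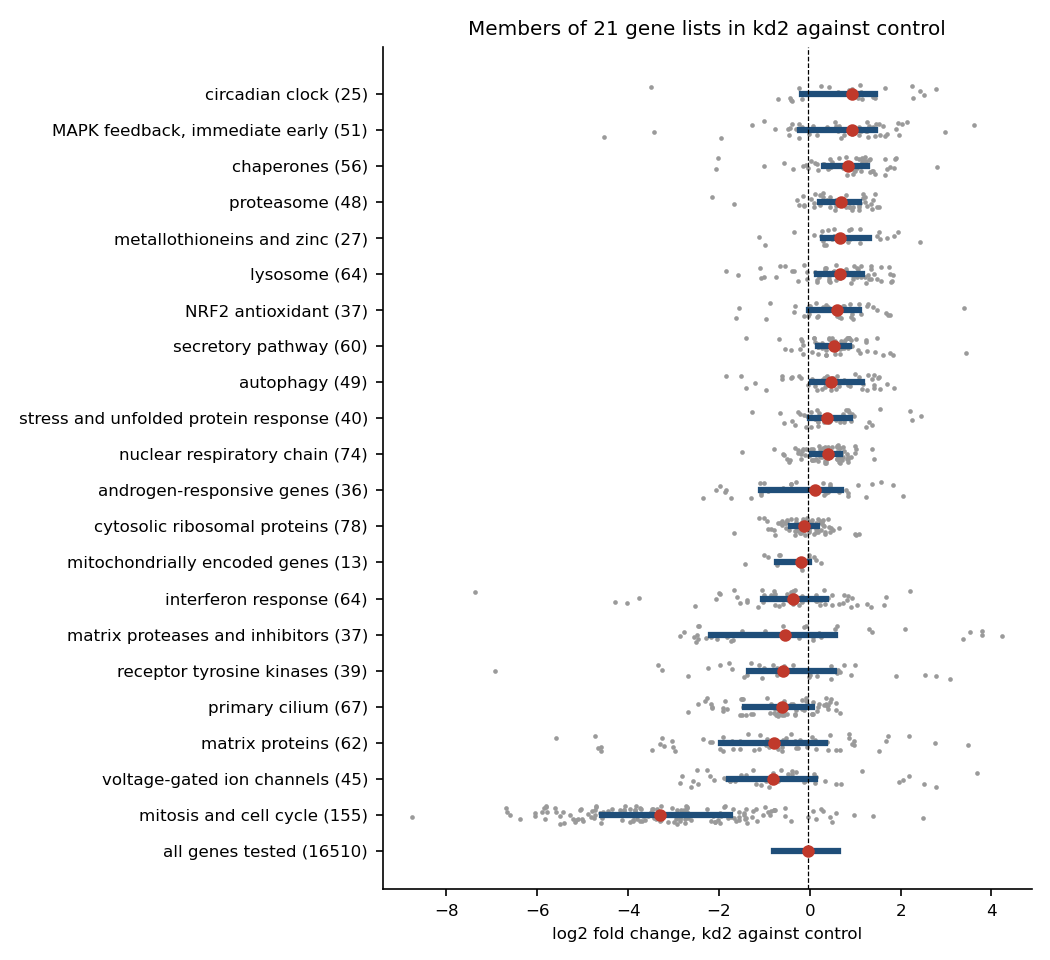
Log2 fold change in kd2 against control for the members of 21 gene lists and for all genes tested, with the number tested in parentheses. Each grey point is a gene, the blue bar spans the 25th to the 75th percentile and the red point is their median. The dashed line is the median of all genes. The clock and immediate early lists have the highest medians of those shown, both 0.92, and the mitosis list the lowest, -3.29.

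Leaving the proliferation lists aside, the steepest rises among genes averaging at least 1 log2 CPM over the control and kd2 libraries were of genes low in control cells. HTR7, a serotonin receptor, had 1.08 and 1.09 CPM in the control libraries and 24.6 and 26.2 in kd2 (4.54 ± 0.15). DLX5, a homeobox transcription factor of bone development, had 0.394 and 0.805 and 10.8 and 10.6 CPM in the same order (4.14 ± 0.23). The matrix metalloprotease gene MMP10 rose from 3.12 and 3.57 to 47.7 and 45.3 CPM (3.79 ± 0.11). CGA, the shared subunit of the glycoprotein hormones, was at 6.84 and 7.53 CPM and reached 99.1 and 92 (3.73 ± 0.08). Each of these genes was about as high in the second kd2 library as in the first. MAGEA11, a cancer-testis gene of the MAGE family, went from 0.822 and 0.58 to 9.29 and 7.79 CPM (3.6 ± 0.23). CREB3L1, a membrane-bound transcription factor of the secretory pathway, rose from 4.11 and 4.09 to 44.9 and 44.4 CPM (3.44 ± 0.11). Every adjusted p in this group was at most 3.21e-09 (edgeR). A further pair of high entries, RFLNA and the readthrough gene ZNF664-RFLNA, had identical counts in every library, so the value of 3.64 given to each cannot be assigned to one of them.

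By the same limit on mean level, the deepest falls were of genes with varied roles. NMU, the peptide neuromedin U, dropped from 19.5 and 19.7 CPM in the controls to 0.252 and 0.146 in kd2 (-6.59 ± 0.22). DHRS2, a short-chain dehydrogenase, dropped from 83.7 and 85.6 to 1.01 and 0.905 CPM (-6.46 ± 0.13). The gene CCN2, which codes for connective tissue growth factor, a secreted matrix protein and a target of YAP, was well expressed before, at 254 and 255 CPM, and fell to 8.51 and 7.18 (-5.02 ± 0.08). Of the genes named in this group it was the most abundant in control. NEURL1B, a ubiquitin ligase of NOTCH ligands, had 53.8 and 53.9 CPM in control and 0.504 and 1.37 in kd2 (-5.85 ± 0.19). GABRE, a subunit of the GABA-A receptor, had 26.7 and 27.7 and 0.308 and 0.905 (-5.49 ± 0.23). SLFN11, which blocks stalled replication forks and sensitises cells to DNA-damaging drugs, had 25.6 and 27 and 0.84 and 0.671 (-5.11 ± 0.16). Also among the 12 steepest were PRR11, a gene linked to the cell cycle, at -6.1, and F5, coagulation factor V, at -5.11. The weakest of these calls had an adjusted p of 3.59e-11 (edgeR).

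Single genes with roles in growth arrest, apoptosis and stress are given next. They come from a list that is not reported here, so nothing is drawn from them together. CDKN1A, the cell cycle inhibitor p21, had 208 and 205 CPM in the controls and 1130.5 and 1079.6 in kd2 (2.42 ± 0.05). GDF15, a secreted stress cytokine, had 505 and 507 and 2500.5 and 2289 CPM (2.24 ± 0.06). PLK2, a stress-induced kinase, had 8.45 and 8.73 and 47.2 and 49.1 (2.49 ± 0.09). In all 3 genes the groups were far apart and the replicates close. DRAM1, a lysosomal protein that promotes autophagy, rose from 6.57 and 6.79 to 33.7 and 33.3 CPM (2.33 ± 0.09). TIGAR, a phosphatase that lowers glycolytic flux, rose from 2.5 and 1.61 to 9.96 and 10.3 (2.3 ± 0.19). BAX, which opens the mitochondrial outer membrane in apoptosis, rose from 81 and 79.2 to 275 and 239 (1.68 ± 0.07). MDM2, a ubiquitin ligase, had 101 and 103 CPM in control and 109 and 107 in kd2 (0.08 ± 0.05, adjusted p = 0.202, edgeR), and it passed the threshold at 0.22 under the correction for GC content and length. MDM4, its partner, fell from 199 and 200.5 to 95.2 and 98.8 CPM (-1.04 ± 0.05). The other adjusted p-values of genes named here were at most 7.19e-08 (edgeR).

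In the BCL2 family, which sets the threshold of mitochondrial apoptosis, 13 of 20 members rose and 4 fell. BID, which links death receptors to mitochondria, rose from 8.61 and 8.69 to 28.5 and 25.8 CPM (1.65 ± 0.09), and BBC3 (PUMA) from 54.9 and 51.5 to 123 and 102 (1.08 ± 0.08). BCL2, the founding inhibitor, fell from 16.3 and 17.2 to 6.58 and 6.25 CPM (-1.38 ± 0.12). The list as a whole had a median of 0.67. BCL2L11 (BIM), which like BID and BBC3 promotes death, was at -0.29, a call that was lost without either control library (-0.3 and -0.29) and under correction for GC content and length (-0.17). Adjusted p-values of these genes did not exceed 0.0108 (edgeR).

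Immediate early genes, which are transcribed within minutes of a growth signal, and the phosphatases and inhibitors that limit MAP kinase signalling leaned upward as well. In it, 33 of 51 tested members rose, 12 fell and 6 did not pass the test, and 24 rose and 5 fell by at least 2-fold. The nuclear receptor NR4A3 rose from 4.47 and 4.86 to 35.3 and 37.9 CPM (2.97 ± 0.11). FOS rose from 58.3 and 57.8 to 187 and 190.0 CPM (1.7 ± 0.05) and EGR1 from 69.1 and 67 to 190.3 and 185 (1.46 ± 0.05), both transcription factors of the first wave. The MAP kinase phosphatases DUSP1 and DUSP10 rose as well, DUSP1 from 76.5 and 71.7 to 331 and 324 CPM (2.14 ± 0.05) and DUSP10 from 31.5 and 30.3 to 123 and 120.2 (1.97 ± 0.06). DUSP6, the phosphatase most specific for ERK, had 25.5 and 25.1 CPM in control and 28.2 and 25.2 in kd2 (0.08 ± 0.08, adjusted p = 0.424, edgeR). Against these rises the MYC genes of the list were lower. MYC fell from 132 and 132 to 55.4 and 54.3 CPM (-1.26 ± 0.06) and MYCL from 11.6 and 9.82 to 1.23 and 0.73 (-3.44 ± 0.28). ETV4, an ETS factor downstream of ERK, fell from 28.7 and 31.2 to 8.59 and 6.89 CPM (-1.95 ± 0.12). All but DUSP6 had adjusted p-values of at most 5.09e-08 (edgeR). In the promoters of this list the letters TGACGTCA, to which CREB and ATF factors bind, occur in 5 of 40 against 3.04% of all 12467 promoters of tested genes, and TGACTCA, the AP-1 core, in 2 of 40 against 3.12%. Both were searched on both strands, from 250 bases before to 50 after the start in RefSeq's table (GRCh38.p14), and these and the later motifs were chosen after the values were seen.

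The circadian clock list, whose core is a loop in which CLOCK and BMAL1 activate the genes of their own repressors through E-boxes, was also shifted upward. Here 18 of 25 members rose and 6 fell, and 12 rose at least 2-fold (48.0%). RORB, a nuclear receptor that activates BMAL1, rose from 6.44 and 4.89 to 30.0 and 35.3 CPM (2.53 ± 0.13). NR1D1, a nuclear receptor that represses it, rose from 2.53 and 2.45 to 11.6 and 12.1 CPM (2.25 ± 0.15). The repressors BHLHE40 and BHLHE41, which compete at E-boxes, rose too, BHLHE40 from 7.39 and 7.24 to 35.7 and 35 CPM (2.27 ± 0.10) and BHLHE41 from 12.8 and 11.1 to 32.5 and 32.8 (1.44 ± 0.10). The core pair changed by less, and was looked up after these values were seen. BMAL1 (listed as ARNTL) rose from 11.1 and 11 to 17.1 and 16.9 CPM (0.62 ± 0.10) and CLOCK had 55.2 and 50.8 CPM in control and 44.4 and 49.5 in kd2 (-0.17 ± 0.07, adjusted p = 0.0445, edgeR), a call that most of the alternatives did not keep. It was lost with DESeq2, with no filter, with the replicate block, when kd1 was left out of the fit in whole or by either library, and without the first control library (-0.11) or the first kd2 library (-0.1), and the correction for GC content and length turned the value to 0.12. PER3 was at 0.953 and 0.805 CPM in control and 4.59 and 4.96 in kd2 (2.44 ± 0.24), whereas PER2 was slightly lower, 41.5 and 43.4 against 34 and 37.9 (-0.24 ± 0.08). The call of PER2 was lost without the second control library (-0.21), without the first kd2 library (-0.17) and under correction for GC content and length (-0.06). The deepest fall of the list, TIMELESS (-3.49 ± 0.08), is of a gene that in mammals acts mainly at replication forks. For the genes named, adjusted p was at most 0.0445 (edgeR). Since the labels give no time of harvest, a difference in clock phase between the groups was not tested.

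The E-box letters CACGTG, which read the same on both strands, occur in 6 of the 22 clock promoters of the same table and in 9.64% of all 12467. A promoter with 3 matches, that of the clock repressor CIART, is shown with part of the PER1 promoter, with the matches in capitals:
CIART: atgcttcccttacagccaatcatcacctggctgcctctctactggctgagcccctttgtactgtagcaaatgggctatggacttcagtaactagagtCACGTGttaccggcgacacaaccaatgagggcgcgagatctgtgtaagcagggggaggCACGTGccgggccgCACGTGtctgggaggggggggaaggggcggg
PER1: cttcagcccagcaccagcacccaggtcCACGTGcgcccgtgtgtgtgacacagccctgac
They lie at chr1:150282328-150282527 on the plus strand and at chr17:8152545-8152604 on the minus strand. Such a match is a string of letters and not a measured site. CIART had 17.1 and 15.7 CPM in control and 43.9 and 41.8 in kd2 (1.38 ± 0.08), and PER1 41.1 and 44.7 and 77.8 and 77.4 (0.86 ± 0.06), with adjusted p-values of at most 2.14e-08 (edgeR).

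Chaperones, which fold proteins and keep unfolded ones from clumping, were mostly higher. Of 56 tested, 46 rose and 5 fell, and 25 rose at least 2-fold (44.6%), with a median of 0.85. HSPB8, a small heat shock protein that with BAG3 delivers clients to autophagy, rose from 18 and 19 to 125 and 134 CPM (2.8 ± 0.07). HSPA4, an HSP70-type nucleotide exchange factor, rose from 184 and 190.4 to 699 and 698 (1.9 ± 0.05). DNAJA1, an HSP40 co-chaperone, rose from 242 and 257 to 844 and 785 (1.71 ± 0.06). HSP90AA1, a cytosolic HSP90, went from 907 and 916 to 1891 and 1768 CPM (1.0 ± 0.05) and HSPA8, the constitutive HSP70, from 959 and 980.0 to 2175 and 2131 (1.15 ± 0.05). All 8 subunits of the cytosolic chaperonin CCT rose, with a median of 0.59 and none reaching 2-fold. HSPD1, the main mitochondrial chaperonin, had 1275 and 1313 CPM in control and 1486 and 1334 in kd2 (0.12 ± 0.06, adjusted p = 0.0603, edgeR). It passed the threshold without the second kd2 library (0.2), with no filter (0.13) and under the correction for GC content and length (0.13). The mitochondrial HSP90 TRAP1 fell from 104 and 107 to 51.2 and 53.5 (-1.01 ± 0.06). The steepest fall was FKBP5, a co-chaperone of steroid receptors and itself an androgen-induced gene, from 379 and 380.4 to 86.4 and 94.5 CPM (-2.07 ± 0.06). Apart from HSPD1, adjusted p-values were at most 1.2e-09 (edgeR). The near-identical heat-inducible copies HSPA1A and HSPA1B held at most 4 counts in any of the 4 libraries and were not tested, and how reads that match both were counted is not given in the sources used here.

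Heat shock factor HSF1 binds repeats of GAA and TTC. The letters GAANNTTC, searched on both strands and identical on both, occur in 10 of 49 chaperone promoters in the RefSeq table and in 4.78% of all 12467. For 3 chaperones that rose, 60 bases around the first match are shown, with the match in capitals:
HSPB8: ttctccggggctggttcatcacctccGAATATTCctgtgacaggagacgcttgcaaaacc
HSPB1: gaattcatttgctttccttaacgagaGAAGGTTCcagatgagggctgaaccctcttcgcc
DNAJA1: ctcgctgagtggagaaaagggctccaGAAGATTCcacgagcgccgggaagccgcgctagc
They lie at chr12:119178817-119178876 on the plus strand, at chr7:76302465-76302524 on the plus strand and at chr9:33025049-33025108 on the plus strand. HSPB1, the small heat shock protein HSP27, rose from 110.2 and 103 to 398 and 329 CPM (1.77 ± 0.08, adjusted p = 8.77e-11, edgeR).

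The proteasome, which degrades ubiquitin-marked proteins, was higher as well. In its list 36 of 48 tested members rose, 3 fell and 9 did not pass the test, with a median of 0.69. Of the 19S regulatory subunits, 18 of 20 rose and none fell, with a median of 0.88. PSMC2, an ATPase of that particle, rose from 164 and 171 to 493 and 463 CPM (1.52 ± 0.05), and PSMC4 from 69.4 and 70.7 to 192 and 189 (1.44 ± 0.05). Of the 20S core subunits, 12 of 17 rose, led by PSMB1, from 134 and 139 to 413 and 352 (1.49 ± 0.07). These genes had adjusted p-values of at most 1.41e-10 (edgeR). PSMB8, a subunit of the interferon-induced immunoproteasome, had 3.45 and 2.09 CPM in control and 3.19 and 3.24 in kd2 (0.22 ± 0.23, adjusted p = 0.405, edgeR), and it passed the threshold at 0.62 without the first control library.

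Lysosomal genes, which code for hydrolases, membrane proteins and the proton pump, were mostly higher. Of 64 tested, 47 rose and 10 fell, and 21 rose and 5 fell by at least 2-fold. Subunits of the V-ATPase, the pump that acidifies the lysosome, rose in 16 of 20 cases, with a median of 0.96. ATP6V1G1 rose from 138 and 145 to 522 and 484 CPM (1.83 ± 0.06) and ATP6V0D1 from 60.8 and 55.6 to 205 and 191 (1.77 ± 0.06). The protease cathepsin D, CTSD, rose from 54.3 and 52.5 to 208 and 165 CPM (1.81 ± 0.09), with the first kd2 library above the second and both above the controls. LAMP1, an abundant membrane protein of the lysosome, rose from 246 and 249.5 to 525 and 501 CPM (1.05 ± 0.05). Cathepsins were divided, with 6 of 13 higher and 5 lower, among them CTSH, which fell from 30.2 and 25.2 to 7.84 and 7.47 CPM (-1.86 ± 0.11). Of the MiT family of transcription factors that drive lysosomal genes, MITF rose from 28.7 and 30.3 to 99.6 and 106 CPM (1.8 ± 0.07) and TFEB from 8.22 and 10.6 to 16.8 and 13.1 (0.67 ± 0.14). Among these genes adjusted p-values reached at most 0.000656 (edgeR).

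MiT factors bind E-boxes with the same CACGTG core. Among lysosomal promoters in the RefSeq table, 11 of 41 hold it, against 9.64% of all, and 4 of 44 autophagy promoters do. Stretches of 60 bases around the match, in capitals, are shown for 3 of the lysosomal genes:
CTSD: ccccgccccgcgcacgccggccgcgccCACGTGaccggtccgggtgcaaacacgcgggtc
ATP6V0D1: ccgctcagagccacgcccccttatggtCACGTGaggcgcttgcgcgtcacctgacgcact
NEU1: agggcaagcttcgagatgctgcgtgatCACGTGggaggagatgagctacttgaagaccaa
Their positions are chr11:1763942-1764001 on the minus strand, chr16:67481184-67481243 on the minus strand and chr6:31862915-31862974 on the minus strand. NEU1, a lysosomal sialidase shown for its match, rose from 46.9 and 46.9 to 139 and 141 CPM (1.58 ± 0.06, adjusted p = 1.54e-11, edgeR). Autophagy promoters held the letters in 4 of 44, close to the share of all promoters.

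Autophagy, which brings cytoplasm to the lysosome, showed 32 rises and 10 falls among 49 members. Among the rises were a cargo receptor and, from the autophagosome membrane, an LC3 protein and a GABARAP protein. SQSTM1 (p62) rose from 125 and 123 to 348 and 369.6 CPM (1.53 ± 0.06), MAP1LC3B from 187 and 187 to 549 and 511 (1.5 ± 0.05) and GABARAPL1 from 30.9 and 29.7 to 98.9 and 97.3 (1.7 ± 0.06). ULK1 and ULK2, kinases that start the process, went the other way, ULK1 from 99.1 and 98.9 to 50.9 and 51.1 CPM (-0.96 ± 0.06) and ULK2 from 39.2 and 36.9 to 10.4 and 10.7 (-1.84 ± 0.09). Every adjusted p in this group was at most 1.49e-09 (edgeR).

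Genes that defend against oxidants under the transcription factor NRF2 rose in 25 of 37 cases and fell in 6. HMOX1, heme oxygenase, stood out, at 7.82 and 9.02 CPM in control and 94.5 and 82.6 in kd2 (3.39 ± 0.10). GCLC, the catalytic subunit of glutathione synthesis, rose from 133 and 130.3 to 441 and 450.2 CPM (1.76 ± 0.05). NQO1, the reductase most often used as a readout of NRF2, was only modestly higher, 14.7 and 13.7 against 18.3 and 18.1 (0.36 ± 0.09), a call lost under library totals alone (0.19), and NFE2L2, the gene of NRF2, rose from 60.3 and 65.1 to 101 and 99.8 (0.68 ± 0.06). Catalase, CAT, fell from 102 and 102 to 36.2 and 32.9 CPM (-1.56 ± 0.06), and the aldo-keto reductase AKR1C3 from 52.6 and 53.9 to 28 and 26.9 (-0.96 ± 0.06). The weakest of these calls had an adjusted p of 0.00283 (edgeR). Reads of AKR1C1, AKR1C2 and AKR1C3, which are near-identical, may have been divided among them.

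Genes of iron handling were divided, with 13 of 27 higher and 9 lower. FLVCR1, a transporter linked to heme and choline, fell from 60.8 and 62.5 to 16.3 and 15.4 CPM (-1.96 ± 0.09). The light and heavy chains of ferritin, which stores iron, rose, FTL from 342 and 354 to 779 and 689 CPM (1.08 ± 0.06) and FTH1 from 172 and 174 to 312 and 332 (0.89 ± 0.05). TFRC, the receptor that takes iron up, rose too, from 284 and 282 to 444 and 465 (0.68 ± 0.05). In the list of metallothioneins and zinc transporters, 20 of 27 tested members rose, 2 fell and 5 did not pass the test, and 9 rose at least 2-fold. SLC30A1, which exports zinc, rose from 64.8 and 64 to 231 and 232 CPM (1.85 ± 0.05), and SLC30A10, which exports manganese, from 5.29 and 5.96 to 29.3 and 30.9 (2.42 ± 0.12). SLC39A8, an importer of zinc and manganese, rose from 103 and 108 to 407 and 403 (1.94 ± 0.05). Of the SLC30 exporters 6 of 9 rose and none fell, and of the SLC39 importers 8 of 12 rose and 2 fell. At least 2-fold rises made up 33.3% of the exporters and 8.33% of the importers, against 12.7% of all genes. Of the metallothioneins MT1 and MT2, 5 of 7 tested rose, among them MT2A (1.54 ± 0.09). The letters TGCNCNC, the core to which the zinc sensor MTF1 binds, occur on either strand in 12 of 21 promoters of this list against 63.1% of all, so a match to such short letters is common. Sequences of the metallothioneins are close, so the split of reads between them is uncertain. Adjusted p-values of these genes did not exceed 1.51e-08 (edgeR).

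**Figure D2:**
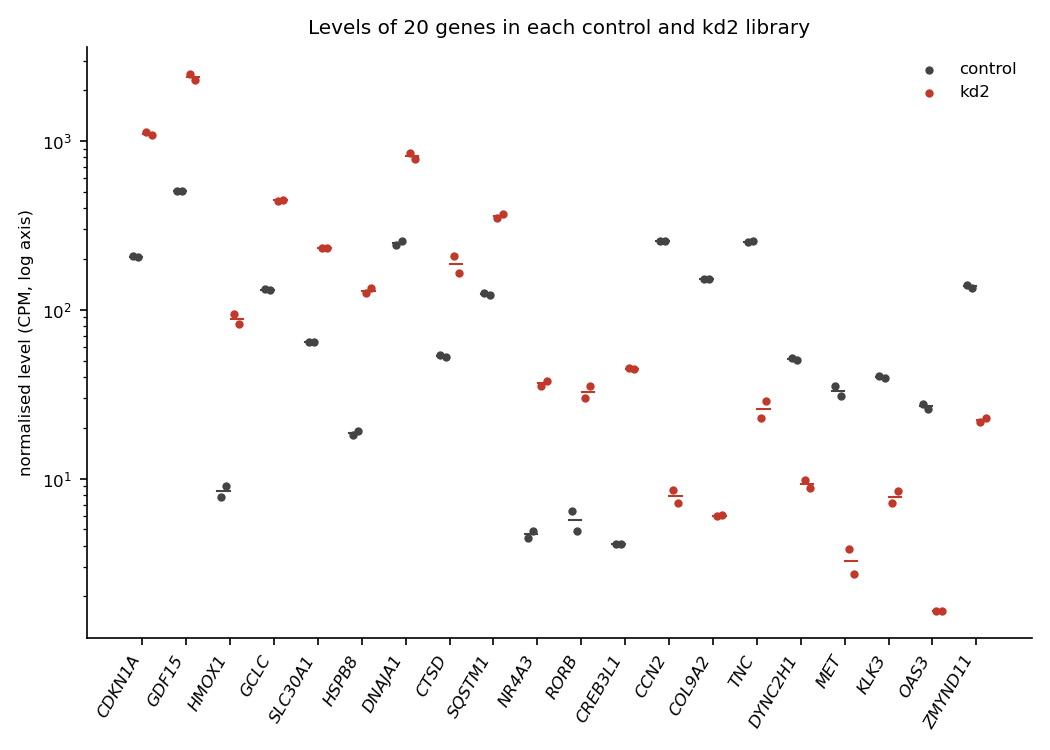
Normalised level (CPM, log axis) of 20 genes in the 2 control libraries (grey) and the 2 kd2 libraries (red), with the mean of each group as a line. For each gene shown, both kd2 points lie on one side of both control points, above them for the 12 genes from CDKN1A to CREB3L1 and below them for the other 8.

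Genes of vesicle traffic differed by family. RAB GTPases, the switches that give membranes their identity, rose in 40 of 59 cases and fell in 7, with 25 at least 2-fold higher (42.4%). RAB27B, which serves the release of granules and exosomes, rose from 26.7 and 26.1 to 90.1 and 93.3 CPM (1.8 ± 0.07), and RAB39A fell from 11.7 and 10.2 to 1.54 and 2.25 (-2.53 ± 0.19). VPS genes, many of them for sorting between endosomes, Golgi and lysosomes, were more even, with 16 of 34 higher, 11 lower and 8.82% at least 2-fold higher. Of the sorting nexins, which shape and sort endosomes, 16 of 28 rose and 7 fell, with 10.7% at least 2-fold higher. The SNARE proteins that fuse vesicles with their targets rose in 20 of 25. Among them STX3, an apical syntaxin, rose by 2.0 on the log2 scale and STX19 from 0.657 and 1.06 to 9.99 and 8.14 (3.39 ± 0.23). In the list of coat proteins and the early secretory pathway, 47 of 60 rose and 6 fell, though most by less than 2-fold, with a median of 0.53. ARF4, a GTPase of the Golgi, rose from 155 and 157 to 539 and 523 CPM (1.77 ± 0.05), and TMED9, a cargo receptor of COPII vesicles, from 132 and 139 to 504 and 454 (1.82 ± 0.06). For the genes named, adjusted p was at most 2.23e-08 (edgeR).

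Within the stress responses of the endoplasmic reticulum and of translation, 25 of 40 members rose and 8 fell, with 7 at least 2-fold higher. CHAC1, which degrades glutathione, rose from 30.2 and 28.4 to 165 and 155 CPM (2.44 ± 0.06), XBP1 from 294 and 304 to 913 and 827 (1.54 ± 0.06) and HSPA5 (BiP), the main chaperone of the reticulum, from 839 and 859 to 1579 and 1465 (0.84 ± 0.05). The folding factors calnexin and PDIA4 were lower, CANX falling from 574 and 563 to 208 and 265 CPM (-1.27 ± 0.08) and PDIA4 from 349.9 and 352 to 242 and 230.4 (-0.57 ± 0.05). DDIT3 (CHOP), a marker of prolonged stress, had 96.3 and 104 CPM in control and 117 and 102 in kd2 (0.12 ± 0.07, adjusted p = 0.135, edgeR), and it passed the threshold at 0.22 without the second kd2 library. The other 5 had adjusted p-values of at most 1.11e-07 (edgeR).

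Core histone genes of the histone clusters were mostly higher, while the replication genes named above were lower. Of 37 tested, 23 rose, 1 fell and 13 did not pass the test, with a median of 1.41. H2BC12 rose from 21.5 and 20.9 to 108 and 101 CPM (2.3 ± 0.06) and H4C8 from 14.3 and 14 to 62.7 and 60.9 (2.13 ± 0.07), with adjusted p-values of at most 2.6e-12 (edgeR). Replication-dependent histone mRNAs normally carry no poly(A) tail. The methods name both poly(A) isolation and rRNA removal, so the counts may be of all such mRNA or of its polyadenylated share, and the part this plays was not tested.

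Genes of the extracellular matrix were mostly lower. In its list 14 of 62 tested members rose, 36 fell and 12 did not pass the test, and 25 fell at least 2-fold (40.3%), with a median of -0.79. COL9A2, a fibril-associated collagen, fell from 152 and 152 to 5.99 and 6.04 CPM (-4.66 ± 0.07). COL27A1, a fibrillar collagen, fell from 89.3 and 83.1 to 3.39 and 3.74 (-4.6 ± 0.09), and TNC, tenascin C, from 251 and 255 to 22.9 and 28.6 (-3.3 ± 0.08). Fibronectin and laminin beta 1, which tie cells to the matrix, fell less, FN1 from 39 and 40.0 to 15.2 and 18.3 CPM (-1.24 ± 0.09) and LAMB1 from 53.9 and 53.2 to 27.9 and 28.2 (-0.93 ± 0.07). Matrix genes also rose, MATN2 (matrilin 2) from 2.37 and 3.25 to 18.9 and 19 CPM (2.75 ± 0.14) and THBS1 (thrombospondin 1) from 73.8 and 76.5 to 229.9 and 252 (1.68 ± 0.06). These genes had adjusted p-values of at most 1.51e-08 (edgeR).

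Proteases that cut the matrix, with their inhibitors, spread widely in both directions. Here 8 of 37 rose and 15 fell at least 2-fold. MMP14, a membrane-bound metalloprotease, fell from 5.82 and 4.64 to 1.46 and 0.847 CPM (-2.17 ± 0.27), and PLAUR, the urokinase receptor, from 6.77 and 5.44 to 1.32 and 0.905 (-2.45 ± 0.23). ADAM22, ADAM23 and ADAM11, relatives of the ADAM proteases without protease activity that bind LGI proteins, fell with log2 fold changes of -2.46, -2.5 and -2.49. Beside MMP10 the inhibitor TIMP1 rose, from 109.9 and 109.8 to 287 and 255 CPM (1.3 ± 0.06). Among integrins, the receptors for the matrix, 8 of 20 fell, a share close to the 36.9% of all genes, and 5 rose. Of these, 6 fell and 1 rose by at least 2-fold. ITGB8, which releases active TGF-beta, fell from 11.1 and 11 to 0.588 and 0.584 CPM (-4.23 ± 0.21) and ITGA1, a collagen receptor, from 35.1 and 37.8 to 4.42 and 3.85 (-3.14 ± 0.11), while the common beta chain ITGB1 had 311 and 304 CPM in control and 274 and 291 in kd2 (-0.12 ± 0.06, adjusted p = 0.0808, edgeR). ITGB1 passed the threshold without the second kd2 library (-0.16), with library totals alone (-0.29) and with at least 10 counts asked of every library (-0.16). CD44, the receptor for hyaluronan, fell from 110.0 and 107 to 25.5 and 22.8 (-2.17 ± 0.07). Leaving ITGB1 aside, adjusted p-values were at most 4.26e-06 (edgeR).

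Genes of the primary cilium, the antenna of resting cells, were lower without a single rise of 2-fold. Of 67 tested, 43 fell and 11 rose, and 20 fell at least 2-fold (29.9%), with a median of -0.62. DYNC2H1, the motor of retrograde transport in the cilium, fell from 51.8 and 50.6 to 9.77 and 8.82 CPM (-2.46 ± 0.09), and DYNC2I2, a chain of the same motor, from 62.5 and 61.4 to 13.2 and 12 (-2.3 ± 0.08). TMEM67 and RPGRIP1L, both of the transition zone at the base of the cilium, fell as well, TMEM67 from 18.4 and 18.4 to 3.64 and 4.06 CPM (-2.25 ± 0.14) and RPGRIP1L from 30.6 and 32.2 to 7.05 and 6.8 (-2.18 ± 0.12). In IFT88, a core protein of the transport particle, control had 28.8 and 32.4 CPM and kd2 28.6 and 25.7 (-0.17 ± 0.09, adjusted p = 0.0975, edgeR). It passed the threshold without the first kd2 library (-0.25), with library totals alone (-0.34), with at least 10 counts asked of every library (-0.21) and under the correction for GC content and length (-0.32). ARL3, the GTPase that unloads cargo in the cilium, was higher, 28 and 27.3 against 47 and 40.2 CPM (0.66 ± 0.09). Adjusted p-values other than that of IFT88 were at most 1.28e-05 (edgeR).

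Ion channels leaned the same way. Among voltage-gated channels 26 of 45 fell and 9 rose, with a median of -0.81, and among all potassium channel genes 30 of 65 fell and 13 rose. SCN8A, a sodium channel, fell from 45.2 and 44.1 to 8.15 and 10.4 CPM (-2.27 ± 0.11). The potassium channels KCNQ5 and KCNMB4 fell, KCNQ5 from 14.9 and 15.3 to 2.21 and 2.71 CPM (-2.62 ± 0.18) and KCNMB4 from 16.1 and 16.3 to 2.91 and 2.92 (-2.47 ± 0.12). CACNB2, an accessory subunit of calcium channels, rose from 16.4 and 17.4 to 75.9 and 78.5 CPM (2.19 ± 0.07). Among these genes adjusted p-values reached at most 8.68e-09 (edgeR).

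Protocadherins, adhesion proteins of which most are encoded in 3 gene clusters on chromosome 5, fell in 39 of 66 cases and rose in 4. The falls came mainly from the alpha and gamma clusters, where 27 of 35 fell, none rose and the median was -1.17. Genes of those clusters share their last exons and overlap each other, so they are not separate measurements. Of the beta cluster, whose genes stand apart, 6 of 16 fell and 1 rose, with a median of -0.37. Within it PCDHB13 fell from 9.14 and 11.3 to 1.96 and 2.83 CPM (-2.09 ± 0.18, adjusted p = 1.03e-07, edgeR).

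Receptor tyrosine kinases, the entry points of growth factors, fell in 21 of 39 cases and rose in 12. MET, the receptor of hepatocyte growth factor, fell from 35.2 and 30.7 to 3.81 and 2.71 CPM (-3.33 ± 0.14). ERBB3 fell from 226 and 239 to 67.1 and 74.2 (-1.72 ± 0.06) and EGFR from 87.2 and 83.3 to 37.1 and 45.3 (-1.05 ± 0.09). The other members of that family rose, ERBB2 from 106 and 100.3 to 194 and 194 CPM (0.91 ± 0.05) and ERBB4 from 19 and 17.4 to 34.9 and 38.1 (1.0 ± 0.09). KIT, the receptor of stem cell factor, rose from 2.83 and 3.86 to 12.3 and 12.9 CPM (1.91 ± 0.15). Every adjusted p in this group was at most 1.7e-07 (edgeR).

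The interferon response, induced by viral nucleic acids and cytokines, was lower in 28 of 64 members and higher in 16. At least 2-fold falls made up 23.4% of the list, against 19.2% of all genes. OAS3, a sensor of double-stranded RNA, fell from 27.8 and 25.9 to 1.65 and 1.63 CPM (-4.03 ± 0.15), and IFITM2, which blocks viral entry, from 11.3 and 12.1 to 1.09 and 0.613 (-3.77 ± 0.21). By contrast ISG15, a ubiquitin-like protein, rose from 45.9 and 45.7 to 87.4 and 78 CPM (0.85 ± 0.07) and ISG20, an exonuclease, from 34.5 and 36.2 to 91.4 and 87.5 (1.34 ± 0.06). The weakest of these calls had an adjusted p of 2.89e-08 (edgeR). IFIT1, among the genes interferon raises most, was at 0.296 and 0.29 CPM in control and 0.672 and 0.321 in kd2 (0.76 ± 0.53, adjusted p = 0.204, edgeR).

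Androgens drive luminal prostate cells, and the genes that respond to them were divided, with 17 of 36 higher and 15 lower, and with a median of 0.11 that changes sign to -0.06 under library totals alone. The falls were the larger ones, with 11 of at least 2-fold against 6 rises. KLK3, the gene of prostate-specific antigen, fell from 40.6 and 39.2 to 7.11 and 8.47 CPM (-2.36 ± 0.10), TMPRSS2, a membrane protease, from 49.3 and 49.3 to 14.7 and 12.9 (-1.84 ± 0.09) and SLC45A3, the antigen prostein, from 101 and 103 to 25.3 and 30.7 (-1.87 ± 0.10). KLK2, a kallikrein beside KLK3, fell from 94.9 and 91.9 to 27.3 and 28.6 CPM (-1.74 ± 0.07). Against these, ACP3, prostatic acid phosphatase, rose from 14.5 and 12 to 32.9 and 35.2 CPM (1.37 ± 0.11). TSC22D3 (GILZ), which glucocorticoids also induce, rose from 80.7 and 84 to 259 and 231 (1.57 ± 0.06). Adjusted p-values of these genes did not exceed 6.05e-08 (edgeR). Of the enzymes that make or remove androgens, UGT2B15, which inactivates them, fell from 42.5 and 41.1 to 17.3 and 18.2 CPM (-1.23 ± 0.08, adjusted p = 3.89e-09, edgeR), and its family shares sequence, so its reads may be shared.

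Other genes of the luminal lineage were also divided, with 18 of 31 higher and 9 lower. ELF3, an epithelial ETS factor, rose from 68.1 and 69.9 to 244 and 248 CPM (1.83 ± 0.05), and MSMB, a secreted protein of prostate fluid, rose by 3.23 on the log2 scale from a low level. HOXB13, a homeobox factor of prostate identity, fell from 205 and 204 to 114 and 112 CPM (-0.85 ± 0.05) and GATA3 from 39.9 and 42.2 to 13.2 and 14.3 (-1.57 ± 0.09). In the neuroendocrine and neuronal list 12 of 43 rose and 20 fell. CALCA, the gene of calcitonin and CGRP, fell from 70.9 and 74.1 to 5.07 and 4.85 CPM (-3.87 ± 0.09) and chromogranin A, CHGA, from 5.95 and 6.15 to 1.26 and 1.31 (-2.23 ± 0.22), while PCSK1N, an inhibitor of prohormone convertase, rose from 45.7 and 40.9 to 196 and 147 (1.99 ± 0.11). For the genes named, adjusted p was at most 3.98e-07 (edgeR).

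**Figure D3:**
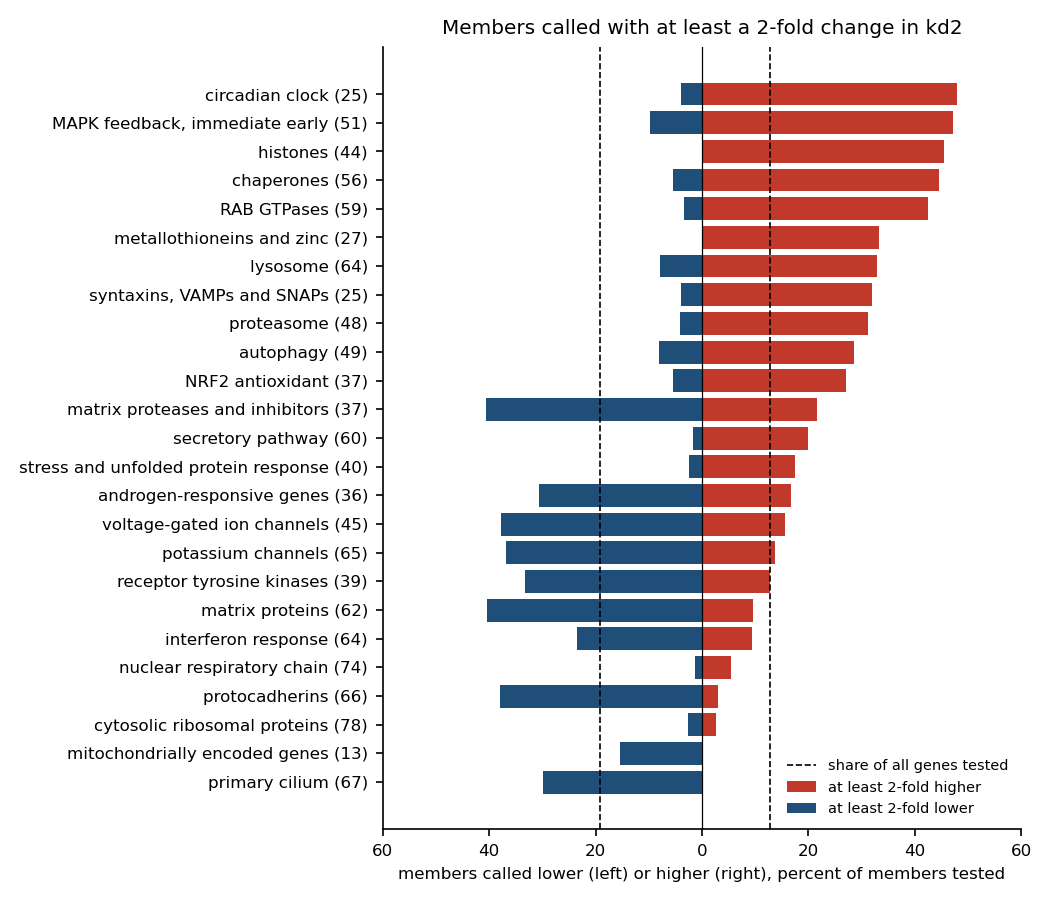
Percent of tested members called at least 2-fold higher (red) or lower (blue) in kd2, for 20 gene lists and 5 families, with the number tested in parentheses. Dashed lines mark the shares of all genes tested, 12.7% higher and 19.2% lower. The clock, immediate early, histone, chaperone and RAB groups extend furthest to the right, and the matrix, protease, protocadherin and channel groups furthest to the left.

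Genes of energy metabolism did not share a direction. Of 30 genes of glycolysis and lactate handling 13 rose and 15 fell. PDK4, which shuts pyruvate out of mitochondria, rose from 113 and 115 to 586 and 578 CPM (2.35 ± 0.05) while its relatives PDK1 and PDK3 fell, at -1.41 and -2.19. HK2, a hexokinase, rose from 106 and 105 to 214 and 235 CPM (1.09 ± 0.06), and SLC16A1, the lactate carrier MCT1, fell from 26.5 and 26.9 to 6.44 and 5.93 (-2.11 ± 0.12). Of 31 genes of cholesterol synthesis 18 rose and 8 fell, with a median of 0.37. That median was 0.2 under library totals alone and 0.2 under the correction for GC content and length. Of 30 tested genes of fatty acid synthesis 9 rose and 15 fell, with a median of -0.29. INSIG1, which holds back SREBP, rose from 163 and 171 to 518 and 503 CPM (1.61 ± 0.05), FDPS, an enzyme of the mevalonate pathway, fell from 106 and 108 to 37.8 and 40.2 (-1.46 ± 0.06) and ACACB, which makes malonyl-CoA, fell from 25.4 and 23.3 to 5.35 and 5.31 (-2.19 ± 0.11). These genes had adjusted p-values of at most 5.71e-08 (edgeR).

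In the respiratory chain the nuclear genes and those of mitochondrial DNA leaned in different directions. Its nuclear genes rose in 46 of 74 cases and fell in 11, with a median of 0.40, which was 0.25 without the first kd2 library and 0.54 without the second. Of the genes encoded in mitochondrial DNA, 8 of 13 fell and 2 rose. They held 8.73% and 8.87% of all counts in control and 6.15% and 6.24% in kd2. COX1 fell from 24877 and 25106 to 15397 and 15764 CPM (-0.68 ± 0.05), whereas CYTB rose from 5965 and 6099.8 to 6913 and 7376 (0.24 ± 0.05), a call lost under library totals alone (0.07) and under correction for GC content and length (0.02). COX4I1, a nuclear subunit of the same complex as COX1, rose from 291 and 298 to 644 and 541 CPM (1.01 ± 0.07). Among these genes adjusted p-values reached at most 0.000594 (edgeR).

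Among the machines of gene expression, translation factors rose in 39 of 49 cases and core spliceosome genes in 37 of 50, with medians of 0.58 and 0.50. SF3B6, a protein at the branch point, rose from 115 and 121 to 463 and 378 CPM (1.83 ± 0.08), and PRPF19, a ubiquitin ligase of the spliceosome, from 173 and 173 to 448 and 426 (1.34 ± 0.05). The splicing regulators of the hnRNP and SR families did not share this, with 21 of 57 higher and 26 lower. SRSF2 fell from 145 and 157 to 57.8 and 53.9 CPM (-1.43 ± 0.06), HNRNPL from 171 and 174 to 84.3 and 92.5 (-0.96 ± 0.06), and HNRNPH3 rose from 226 and 235 to 630.5 and 569 (1.38 ± 0.06). Every adjusted p in this group was at most 3.68e-09 (edgeR). Cytosolic ribosomal proteins rose in 20 and fell in 32 of 78, with a median of -0.12, which was -0.23 and -0.02 without the first and the second kd2 library. Several of them have many pseudogenes, and their counts are uncertain for that reason.

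Where kd2 differed from the first knockdown was tested directly, with kd2 set against kd1 in the same fit. Of all genes, 34.9% were higher in kd2 and 33.8% were lower (adjusted p under 0.05, edgeR), so a difference between the knockdowns was common. For CDKN1A the kd1 libraries had 383 and 367 CPM, with a difference between knockdowns of 1.56 ± 0.05 on the log2 scale. For GDF15 they had 717 and 712 CPM, with a difference of 1.75 ± 0.05. In the clock list, 22 of 25 members were higher in kd2 than in kd1 and 2 lower, with RORB differing by 1.27 ± 0.12. HMOX1 was at 14.8 and 13.7 CPM in kd1, a difference of 2.63 ± 0.09, and SLC30A1 at 70.6 and 68.2, a difference of 1.74 ± 0.05. These 5 differences had adjusted p-values of at most 3.01e-07 (edgeR). Mitosis genes, whose median against control was -3.29 in kd2 and -4.27 in kd1, were higher in kd2 than in kd1 in 106 of 155 cases.

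In the opposite direction, 72 of 78 ribosomal protein genes and 63 of 74 nuclear genes of the respiratory chain were lower in kd2 than in kd1. Their medians against control were -0.12 and 0.40 in kd2 and 0.81 and 1.30 in kd1, and both comparisons use the same 2 controls. Proteasome genes were lower in kd2 in 34 of 48 cases and interferon response genes in 31 of 64. Core histones of the clusters were lower in 29 of 37. Chaperones (26 higher, 19 lower of 56) and the immediate early list (19 higher, 21 lower of 51) were more even. Androgen-responsive genes were higher in kd2 than in kd1 in 25 of 36 cases. Single genes within the even lists still differed. HSPA4 was higher in kd2 than in kd1 by 1.34 ± 0.05 and HSPB1 lower by a difference of -2.25 ± 0.08, and FOS differed by -1.72 ± 0.05 (adjusted p at most 2.91e-11, edgeR).

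**Figure D4:**
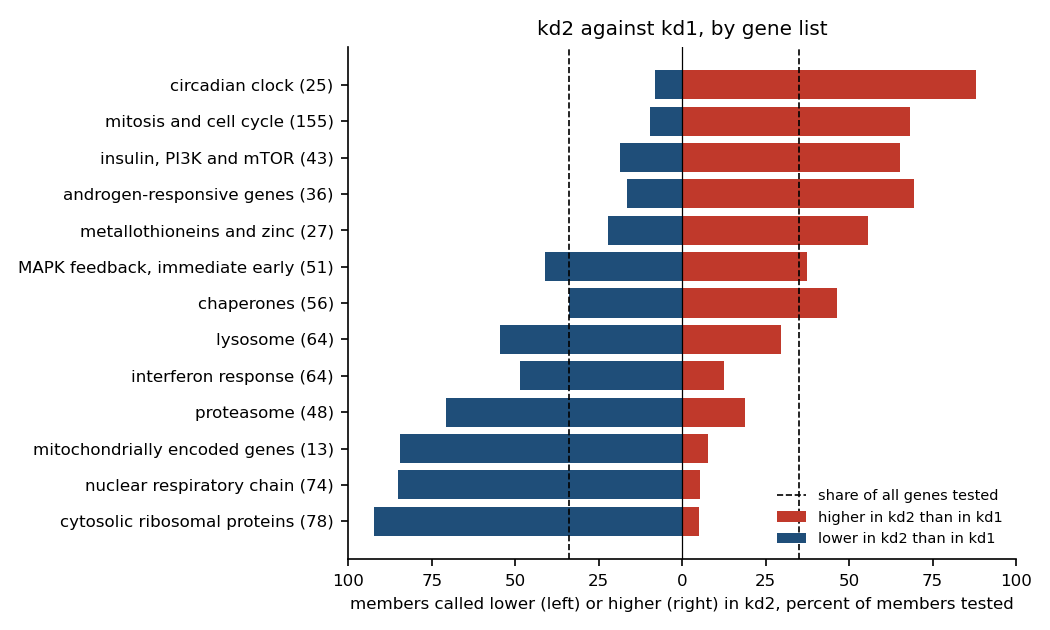
Percent of tested members of 13 gene lists called higher (red) or lower (blue) in kd2 than in kd1, with the number tested in parentheses. Dashed lines mark the shares of all genes tested, 34.9% higher and 33.8% lower. The clock list extends furthest to the right, and the ribosomal protein, respiratory chain and mitochondrially encoded genes furthest to the left.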

How the data were processed

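RNA was sequenced from 22Rv1 cells in 3 groups of 2 libraries, control, kd1 and kd2, and samples were grouped by their labels. The authors trimmed reads with AdapterRemoval, and per the submitters' processing notes used FastQC 0.11.9, STAR 2.7.9a and HTSeq 0.13.5 with hg38, and they deposited raw read counts per gene symbol. Annotation, strand setting and the treatment of multiply mapped reads are not given in the sources used here, so genes that overlap, antisense partners and near-identical copies cannot be told apart. The methods name poly(A) selection or rRNA removal without saying which was applied.

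From these counts, the 16510 of 35322 symbols that passed filterByExpr entered edgeR (version 4.0.16, R version 4.3.3). Its quasi-likelihood fit, scaled by TMM, held all 6 libraries in 3 groups, with 3 residual degrees of freedom, and kd2 was set against control and against kd1. Calls are Benjamini-Hochberg adjusted p-values under 0.05, and the SE is the log2 fold change over the square root of F. Total counts were 26844128 to 36040761 in the control and kd2 libraries. Errors rest on a spread shared by all 3 groups, with 2 libraries a group, and do not describe the kd2 libraries alone. In simulated kd2 against control libraries of 15984 genes with 200 changed, 86% of 2-fold and 90% of 4-fold changes were recovered and 7.85% of calls were false. The simulation gave every group the same spread and changed far fewer genes than the 73.4% called here. Its rates therefore need not hold for these data.

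The members and gene lists were chosen with earlier results of these data known. Genes named are ZMYND11 and fixed anchor genes of each list, whatever their values, and genes picked by size of change. The latter are up to 4 rises and 4 falls per list (3 per family), the 12 largest rises and falls over all genes outside proliferation, and up to 6 per direction changed oppositely in kd1. Each gene picked by size was called, averaged 1 log2 CPM or more and had both kd2 libraries on one side of the controls. ARNTL, CLOCK, CIART, PER1 and NEU1 were added after their values were seen. Alternatives were other scalings, DESeq2 1.42.0, count filters, a replicate block, fewer libraries, a GC content and length correction and a 1.5-fold limit. Symbols matched the annotation for 32852 genes by name and 18 by an older symbol. Some genes and 1 gene list are not reported here.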

Additional observations from a re-analysis of the deposited data

Results flagged for a closer look

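In 147 genes kd2 changed by at least 2-fold against control in one direction while kd1 was called in the other, with the knockdowns differing from each other and the kd2 libraries clear of the controls. Of these, 61 were higher and 86 lower in kd2 than in kd1. The differences of the 6 largest on each side, each tested between the knockdowns, were taken for a closer look. KCTD12, an auxiliary subunit of GABA-B receptors, had 10.1 and 12.4 CPM in control, 95.4 and 93.2 in kd2 and 3.68 and 3.99 in kd1, a difference of 4.62 ± 0.10 on the log2 scale. ACER2, a Golgi ceramidase, had 6.18 and 5.92, 16.5 and 22.9 and 1.12 and 0.811 CPM in the same order, a difference of 4.33 ± 0.21. The other genes higher in kd2 were PROX1 (4.11), PTPRN2 (4.0), CDH12 (3.32) and CFAP43 (3.19).

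On the other side LGALS1, the gene of galectin-1, had 61.4 and 61.5 CPM in control, 14.3 and 13 in kd2 and 299 and 328 in kd1, a difference of -4.52 ± 0.07. TNFRSF18, the receptor GITR, had 10.1 and 12.5, 0.532 and 0.496 and 19.8 and 20.7 CPM, a difference of -5.29 ± 0.19. Further genes lower in kd2 were ATCAY (-4.7), ARHGDIG (-4.55), GCG (-3.6) and RGS14 (-3.44). The 12 adjusted p-values were at most 4.48e-07 (edgeR). ZMYND11 itself was at 21.6 and 22.7 CPM in kd2 and 27.7 and 26.1 in kd1, a difference of -0.28 ± 0.07 (adjusted p = 0.00265, edgeR), and its part in these differences was not tested. The labels do not name the shRNA of either knockdown.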

How the results depend on the processing

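The number of genes called in kd2 against control, 12118, ranged from 10799 to 12291 over the alternatives, with 12110 under DESeq2's size factors, 11233 with DESeq2's own test and 11928 when only the control and kd2 libraries were fitted. Leaving out 1 library at a time gave 10799 to 12089. With a 1.5-fold limit in place of 2-fold, 8435 genes passed in place of 5267, and 3931 rises in place of 2104. ZMYND11 stayed between -2.81 (library totals alone) and -2.50 (correction for GC content and length).

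Library totals alone moved the share of calls that were higher from 49.8% to 40.8%, and 23 rather than 34 of 56 lists outside proliferation then had a median above 0. Of 812 list medians under alternatives 673 stayed within the spread between replicates. CLOCK turned from -0.17 to 0.12 under the correction for GC content and length, and the cause was not tested. The deviations of libraries with the same replicate number correlated at -0.0264 between control and kd2, so no shared effect of the number was seen. The labels do not say whether libraries of the same number were prepared together, and this value cannot decide it. A fit with the replicate number as a block called 11688 genes, 11680 of them shared with the fit without it and 0 with the opposite sign.

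The total counts are high, and with 2 libraries a group the spread is estimated on 3 degrees of freedom, kd2 libraries differ more from each other than controls do, and separate cultures are not stated.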

Other observations

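Families outside the pathways described above also moved. Of 30 subunits of Mediator, which links transcription factors to RNA polymerase II, 19 rose and 6 fell in kd2. MED8 rose from 32 and 31.7 to 90.6 and 81.7 CPM (1.44 ± 0.07), and MED12, of the kinase module, fell from 48.6 and 49.4 to 22.5 and 29.8 (-0.91 ± 0.11). Of 10 S100 calcium-binding proteins 5 rose and 2 fell. S100P rose from 676 and 728 to 3765 and 3088 CPM (2.29 ± 0.08), which put it among the abundant mRNAs of kd2. The weakest of these calls had an adjusted p of 2.43e-06 (edgeR).

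Among 29 forkhead transcription factors 17 rose and 9 fell. FOXC1 rose from 1.74 and 1.48 to 9.21 and 7.68 CPM (2.39 ± 0.18), and FOXM1, which drives mitosis, fell from 107 and 100.5 to 9.88 and 11.6 (-3.27 ± 0.09). Host genes of small nucleolar RNAs fell in 11 of 19 cases and rose in 2. Among the falls SNHG29 went from 395 and 423 to 117 and 123 CPM (-1.77 ± 0.06). Solute carriers fell in 124 of 266 cases and rose in 75, and SLC43A3, a purine transporter, fell from 25.5 and 26.6 to 0.952 and 1.72 (-4.29 ± 0.18). Adjusted p-values of these genes did not exceed 1.9e-08 (edgeR).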
